A study of Rattus norvegicus with 35 samples.

Results

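Among 34 single cells of a rat hypoblast stem cell culture, 4 cells held transcripts of Col1a2, the gene for the alpha-2 chain of type I collagen. These 4 Col1a2 cells, in chambers C14, C17, C30 and C46, were selected on that measured level, at 5 CPM or more, where CPM is reads scaled to a total of 1000000 for the cell. Their gene expression was set beside that of 27 other cells, those with at least 1500 transcript records above 0. Another 3 cells lay under that floor, with 1360 records in C31, 445 in C88 and 349 in C94, while the compared cells nearest above it were C74 with 1556 and C95 with 1642. No cell lay near the Col1a2 threshold: the 4 cells held 1906 CPM (68 reads) in C14, 308 CPM (20 reads) in C17, 2126 CPM (58 reads) in C30 and 252 CPM (24 reads) in C46, and the remaining 30 cells, including the 3 under the floor, held 0 reads. A bulk library labelled as a population control was left out of the comparison.

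The cells were converted hypoblast stem cells, which the submitters derived from rat embryonic stem cells with the factors LIF, PDGF and EGF in 2% serum, and all were collected on day 12 of differentiation. Single cells were isolated in the chambers of a C1 microfluidic system, and libraries followed the Nextera XT protocol. Every cell carries the same labels, with no strain, culture, passage or batch to separate them, so the 34 cells are 1 sample. The cells are therefore not replicates, all differences are descriptions of these cells, and no p-value is given.

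Hypoblast cells, also called primitive endoderm, arise in the blastocyst and later line the yolk sac. Its cells are specified by GATA and SOX transcription factors and lay down a basement membrane of laminins and type IV collagen. Fibrillar type I collagen, by contrast, is the main matrix product of fibroblasts and other mesenchymal cells, which also carry vimentin filaments and adhere through fibronectin.

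The labelled cell type was checked against marker genes in each cell. The 8 hypoblast markers (Gata6, Gata4, Sox17, Sox7, Foxa2, Pdgfra, Dab2 and Lama1) summed to 112 CPM in C14, 92.3 in C17, 0 in C30 and 189 in C46, against 329 to 13330 CPM (median 4785) in the other cells. All 4 cells lay below every other compared cell in this sum, against their label, and Gata4, Sox17 and Foxa2 were at 0 in all 4. Of 12 fibroblast markers, 11 had a record; they summed to 3167, 338, 3079 and 294 CPM in C14, C17, C30 and C46, against 0 to 1403 CPM (median 0) in the other cells. Without Col1a2, which selected the cells, the sums were 1261, 30.8, 953 and 41.9 CPM, so C17 and C46 lay within the range of the other cells, whose lowest, median and highest sums stayed at 0, 0 and 1403 CPM. Thy1, Lum and Twist1 of that list were at 0 in all 4 cells, so the cells are called by the gene that selected them and given no cell type. Parietal endoderm markers summed to 1093, 369, 8063 and 566 CPM, against 95 to 52326 CPM (median 12720). Embryonic stem cell markers summed to at most 15.4 CPM in the 4 cells, against 0 to 1177 CPM (median 0) in the other cells. Markers of visceral endoderm, trophoblast, endothelium and blood summed to 0 in each of the 4 cells. In the other cells the visceral endoderm sum was 0 to 1128 CPM (median 64.4). The other cells' median was also 0 for trophoblast, endothelium and blood, so those sums do not set the 4 cells apart. On the longer lists, 0 of 3 measured trophoblast genes and 0 of 4 measured endothelial and blood genes were called. With 4.38% of all genes called higher and 7.14% lower, a count of 0 among so few does not stand apart. Whether RNA or cells of another type took part in the differences below was not tested.

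Depth differed between the groups and bears on every count of detected genes. The Col1a2 cells held 35681 reads in C14, 65038 in C17, 27284 in C30 and 95359 in C46, and the other cells held 61770 to 503044 (median 301398). Only C09 and C45 of the other cells were no deeper than C46. A single read was worth 10.5 to 36.7 CPM in the Col1a2 cells and 1.99 to 16.2 CPM in the other cells. Genes with a read numbered 1993, 3752, 2312 and 4028 in the Col1a2 cells (median 3032) and 1556 to 5514 in the other cells (median 4470). After each cell was thinned at random to 27284 reads, which lost no cell, the medians were 2727 and 3159 genes, and the groups overlapped. Values from the thinned cells are given below beside the main ones. Among the other cells, C03, C09, C39, C45, C47, C74 and C95 stood apart from the rest: their median Spearman's rho with the other cells was 0.245 to 0.272, against 0.339 to 0.434 for the remaining 20. This split was seen in the data and is no group of the study. Counts against the 18 other cells with at least 4000 genes, which leave these 7 out, are given where they moved by more than 1.5 times.

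**Figure D1:**
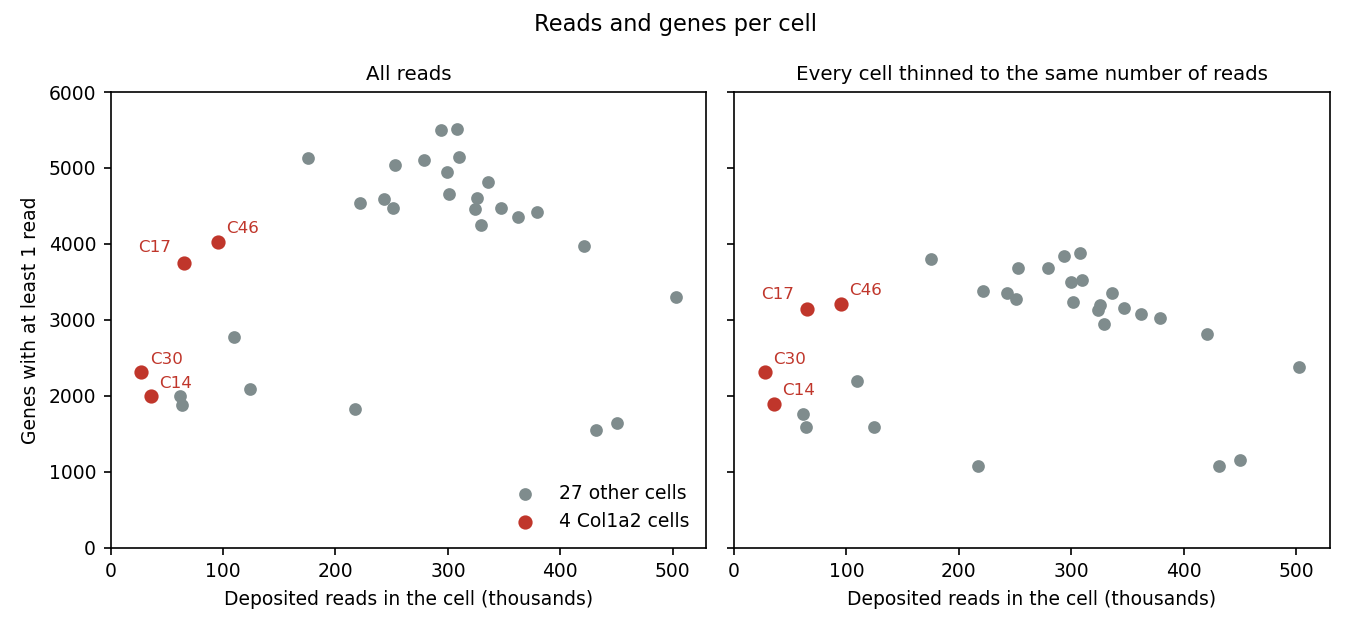
Genes with at least 1 read (vertical axis) against deposited reads per cell (horizontal axis), for all reads (left) and after each cell was thinned to 27284 reads (right). Red points are the 4 Col1a2 cells and grey points the 27 other cells; the Col1a2 cells lie at the left, between 27284 and 95359 reads, and within the range of the other cells in genes after thinning.

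Differences were described by detection (5 CPM or more) and by level. Among 8199 genes detected in at least 3 compared cells, 149 (1.82%) were found in at least 3 of the 4 Col1a2 cells and in at most 25% of the other cells. Another 71 (0.866%) were found in none of the 4 and in at least 75% of the other cells. The level difference is the mean over cells of log2(CPM + 10) in the Col1a2 cells minus that in the other cells. Among 6569 genes with a mean level of at least 10 CPM, 288 (4.38%) were called higher, by 2 or more with detection in at least 3 of the 4 cells. In the other direction 469 (7.14%) were called lower, by 2 or more with detection in at least 50% of the other cells. The median difference over all 6569 genes was -0.29 (thinned -0.23), with 2723 differences above 0 and 3846 below 0. A gene with no read in 1 group entered through the other group alone, which fixed the sign of its difference. The list medians and counts of signs below can hold such genes. In 24 genes (0.365%) all 4 Col1a2 cells lay above every other cell, and in 4 genes (0.0609%) all 4 lay below. The 4 cells were selected in the same data, so nothing is read from these percentages.

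Several of these counts rest on single cells or on the choice of the other cells. Without 1 of the 4 cells, the genes detected in more Col1a2 cells numbered 81 (without C14), 40 (without C17), 69 (without C30) and 49 (without C46), with all 3 remaining cells then required. Of the 149 genes, 99 were also among the 188 called after thinning, and 56 among the 181 called at a detection level of 50 CPM. The genes detected in fewer Col1a2 cells numbered 36 after thinning, 23 of them among the 71, and 138 without C46. Against the other cells with at least 4000 genes, 246 genes were detected in fewer Col1a2 cells, 851 were called lower, and 53 lay above and 106 below all other cells. Without C14, C30 or C46 the genes above all other cells numbered 54, 48 and 38, and without C46 those below numbered 10.

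Genes called higher in the Col1a2 cells included members of the matrix, mesenchymal, actin and matrix receptor lists. Of the 149 genes called by detection, C14 held 97, C17 138, C30 109 and C46 129, and the other cells held 2 to 35 (median 16), a separation set by the call itself. On a list of 37 fibrillar collagen and fibroblast matrix genes, 18 were measured. Of these 6 were called higher, Col1a2 included, and 0 lower, against 4.38% and 7.14% of all genes. The list's median difference was 1.5 (thinned 1.33), and 16 of the 18 differences were above 0, against 2723 of 6569 over all genes. Members with no read in the other cells, Col1a2, Thbs1 and Tnc among them, were measured through the Col1a2 cells alone. Their differences could not be below 0, so the median and the count of signs are partly set by the filter. Without Col1a2, but with the other such members kept, 5 of 17 genes were called higher, with the same median of 1.5 (thinned 1.32).

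Type I collagen's other chain was not found in all 4 cells. Col1a1 was at 1009 CPM in C14, 30.8 in C17, 549.8 in C30 and 0 in C46, and of the other cells C09 alone held it, at 408 CPM. Fibronectin, encoded by Fn1, was at 2747 CPM in C14, 1476 in C17, 6084 in C30 and 859.9 in C46, against 0 to 4994 CPM (median 103) in the other cells, a difference of 4.75. The groups overlapped in Fn1, since C39 lay above 3 of the 4 Col1a2 cells. Thbs1, which encodes the adhesive glycoprotein thrombospondin-1, was at 140.1 CPM in C14, 123 in C17, 1943 in C30 and 0 in C46, and no other compared cell held a read of it. Fbn1, the fibrillin-1 gene of elastic microfibrils, and Pcolce, which enhances procollagen processing, were each present in 3 of the 4 cells and absent from the other cells. Their highest values were 112 and 147 CPM.

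Other genes of the matrix list separated the 4 cells from one another. Type III collagen gene Col3a1 had 2 reads in C14 and none in any other compared cell. The small proteoglycan genes Bgn and Dcn were each found in a single Col1a2 cell, Bgn in C14 at 645 CPM and Dcn in C30 at 293 CPM. Mfap5, which encodes a microfibril protein, ran against the list: it was at 1009 CPM in C14, 0 in C17, 73.3 in C30 and 21 in C46 and was detected in 22 of the 27 other cells (median 279 CPM), a difference of -1.24 that was not called.

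Of 12 measured genes for enzymes and chaperones that fold and modify collagen chains, 0 were called higher and 1 lower. Over all genes these shares were 4.38% and 7.14%, so the counts of so few genes do not stand apart. Of the differences, 11 of 12 were below 0, against 3846 of 6569 over all genes, with a list median of -1.52 (thinned -1.49). P4ha2, a prolyl hydroxylase subunit, was at 0 in the 4 cells and was detected in 21 other cells. Serpinh1, the collagen chaperone HSP47, was at 0 CPM in C14, 123 in C17, 147 in C30 and 73.4 in C46, against 0 to 679.6 CPM (median 265) in the other cells. Set against C09 and C45 alone, the other cells no deeper than C46, the list's median was 0.28.

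Mesenchymal markers were mostly higher. Of 21 measured genes on a list of 41, 9 were called higher and 0 lower, against 4.38% and 7.14% of all genes. The list's median difference was 1.76 (thinned 1.77). That median is the value of Crabp1, at 1289 CPM in C14 and at 0 in C17, C30, C46 and all other compared cells. Such genes were measured through the Col1a2 cells alone, so their differences could not be below 0 and the median rests partly on them. Vimentin, encoded by Vim, is the intermediate filament of mesenchymal cells. It was at 2831 CPM in C14, 1829.7 in C17, 4325 in C30 and 1510.1 in C46, against 0 to 1931 CPM (median 194) in the other cells, or 2624 ± 1266 CPM (SD, n = 4 cells) against 322 ± 422 CPM (SD, n = 27 cells). The difference was 4.18 (thinned 4.41), and C09, the highest of the other cells, overlapped C17 and C46 only.

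Lgals1, which encodes the galactoside-binding protein galectin-1, was at 1205 CPM in C14, 1245 in C17, 2492 in C30 and 1657 in C46 and had the largest positive difference of all measured genes, 6.53 (thinned 6.59). It was detected in 7 other cells, with C09 highest at 1115 CPM, so the groups did not overlap. S100a4, a calcium-binding protein also called fibroblast-specific protein, was at 1205 CPM in C14, 538 in C17, 110.0 in C30 and 902 in C46. Among the other cells only C47 held it, at 137 CPM, above the value of C30. Cd44, the hyaluronan receptor, was at 224 CPM in C14, 369 in C17, 367 in C30 and 73.4 in C46, and the only other cell to hold it was C15, with 9.68 CPM.

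Further members of the mesenchymal list were Anxa1, Timp1, Cdh11, S100a6 and Cav1. The phospholipid-binding annexin gene Anxa1 was at 981 CPM in C14, 354 in C17, 1356 in C30 and 294 in C46 and reached 301 CPM in C47, the highest other cell. Timp1, a metalloproteinase inhibitor, was at 504 CPM in C14, 277 in C17, 1173 in C30 and 209.7 in C46. Cdh11, a cadherin of mesenchymal cells, was at 1205 CPM in C14, 123 in C17, 367 in C30 and 0 in C46 and at 0 in all other compared cells. S100a6 was at 673 CPM in C14, 1522 in C17, 1759 in C30 and 1688 in C46 but was also detected in 26 other cells, with 4034 CPM in C09, so its difference of 2.20 is one of degree. Twist2, a transcription factor of mesenchyme, was not called: C46 held 62.9 CPM and C09 2465 CPM.

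**Figure D2:**
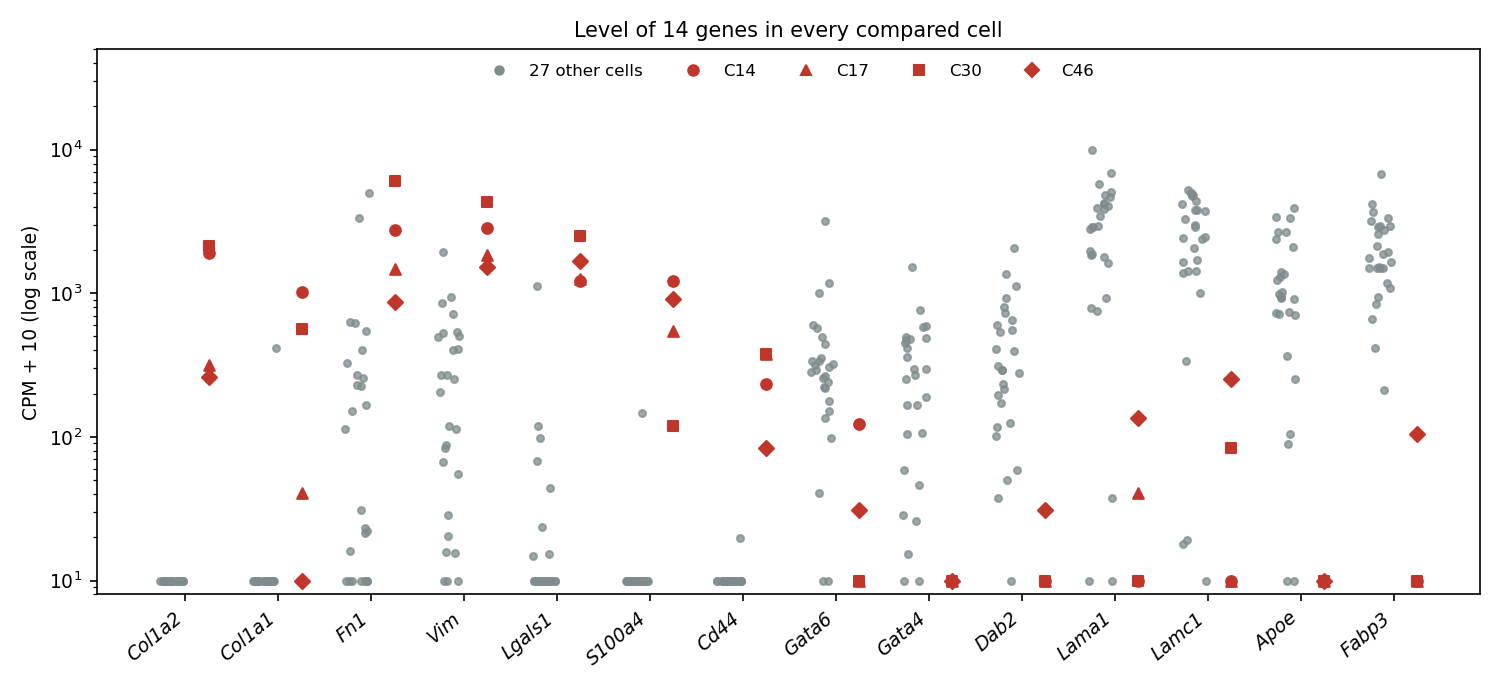
Level of 14 genes in each compared cell, as CPM + 10 on a log scale, with 1 column of points per gene. Grey points are the 27 other cells and red symbols the 4 Col1a2 cells (circle C14, triangle C17, square C30, diamond C46); points at 10 have no read. Lgals1 and Cd44 lie higher in all 4 Col1a2 cells than in any other cell, Fabp3 lies lower in all 4, and in Vim, Fn1 and S100a4 at least 1 other cell reaches into the range of the 4.

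The promoter windows of 3 genes with higher levels and of a laminin gene with a lower level are printed here, so that the start regions of genes with opposite differences can be read side by side. They are the 250 bases before the RefSeq gene start on the GRCr8 assembly, all on the plus strand, and capitals mark TATAAA and CCAAT or its reverse complement ATTGG, searched on both strands (TTTATA is the reverse complement of TATAAA).
Col1a2, chr4:33518307-33518556: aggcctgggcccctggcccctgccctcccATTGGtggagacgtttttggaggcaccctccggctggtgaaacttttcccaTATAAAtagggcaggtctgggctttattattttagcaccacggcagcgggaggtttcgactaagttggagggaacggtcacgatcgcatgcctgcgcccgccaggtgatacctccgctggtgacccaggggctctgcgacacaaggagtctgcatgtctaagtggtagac
Vim, chr17:81577011-81577260: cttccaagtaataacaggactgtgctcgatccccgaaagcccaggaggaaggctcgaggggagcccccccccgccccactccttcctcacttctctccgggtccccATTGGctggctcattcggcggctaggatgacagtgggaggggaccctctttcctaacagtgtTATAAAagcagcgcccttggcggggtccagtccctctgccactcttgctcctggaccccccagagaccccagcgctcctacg
S100a4, chr2:178388279-178388528: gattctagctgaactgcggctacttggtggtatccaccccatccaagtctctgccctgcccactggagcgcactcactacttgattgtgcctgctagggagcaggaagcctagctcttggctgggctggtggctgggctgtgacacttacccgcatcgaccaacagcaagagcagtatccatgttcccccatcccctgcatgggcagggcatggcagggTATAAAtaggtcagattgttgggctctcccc
Lama1, chr9:115139298-115139547: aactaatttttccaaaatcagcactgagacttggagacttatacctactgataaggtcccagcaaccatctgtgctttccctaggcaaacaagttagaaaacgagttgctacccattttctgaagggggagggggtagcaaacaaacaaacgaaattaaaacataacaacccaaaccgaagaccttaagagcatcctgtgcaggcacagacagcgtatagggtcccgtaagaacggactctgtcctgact

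The windows of Col1a2, Vim and S100a4 each held 1 TATAAA, and those of Col1a2 and Vim each held 1 ATTGG. The Lama1 window held neither. Of the 288 genes called higher, 247 had a window and 13.4% of these held TATAAA on either strand; the share was 6.82% for 396 windows of genes called lower, 6.91% for 5467 windows of all measured genes and 12.9% for all 33469 windows. For CCAAT the shares were 31.6%, 36.1%, 36.3% and 34.0%. A match is a run of letters in the window and not evidence of a binding site. Whether transcription begins at the annotated gene start was not tested, so a window can hold transcribed bases.

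Genes of the actin cytoskeleton were split. Of 24 measured contractile and actin genes, 7 were called higher and 1 lower, against 4.38% and 7.14% of all genes. The list's median difference was 0.83 (thinned 1.01). Acta2, smooth muscle actin, was at 12388 CPM in C14, 308 in C17, 219.9 in C30 and 378 in C46. The other cells held 9.2 to 267 CPM (median 80.8), so C14 stood far above all cells, while C17 and C46 lay just above the highest other cell and C30 within the range. Myl9, a regulatory myosin light chain, was at 336 CPM in C14, 185 in C17, 219.9 in C30 and 357 in C46, against 0 to 199 CPM (median 3.23) in the other cells, with a difference of 4.08. The 5 smooth muscle markers together summed to 13144, 492, 439.8 and 745 CPM in the 4 cells, against 9.2 to 1062 CPM (median 95.5).

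The filamin genes Flna and Flnc, whose products crosslink actin, and the focal adhesion protein gene Zyx were called higher by 3.26, 3.28 and 2.83. Msn, which encodes moesin, a linker of actin to the plasma membrane, was at 364 CPM in C14, 477 in C17, 1796 in C30 and 262 in C46, a difference of 4.89. Myh9, the heavy chain of non-muscle myosin IIA, ran the other way: C30 held 367 CPM, the other 3 Col1a2 cells held 0, and 24 other cells held it (median 315 CPM). Tagln, another smooth muscle gene, was found in C14 alone of the 4, at 392 CPM.

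Map1b, a microtubule-binding protein of neurons and migrating cells, had the second-largest positive difference apart from Col1a2. It was at 1541 CPM in C14, 1215 in C17, 367 in C30 and 828 in C46, was detected in 3 other cells and reached 238 CPM there, so the groups did not overlap. Its difference was 6.21 (thinned 6.31). Neural identity genes were few: of 4 neural markers, 3 had a record, Pax6 was at 0 in all 4 cells, and the sum was 105 to 338 CPM against 0 to 314 CPM in the other cells. On the longer neural list, 3 genes were measured and 1, the neuronal tubulin gene Tubb3, was called higher, against 4.38% of all genes. The list's median was 1.04, and -0.56 without C14.

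Some genes for secreted signals and for the processing of peptides were called higher. Csf1, the macrophage growth factor, was at 224 CPM in C14, 846 in C17, 257 in C30 and 73.4 in C46, with 0 reads in every other compared cell. Cpe, an enzyme that trims peptide hormones and neuropeptides, was at 56.1 CPM in C14, 169 in C17, 1723 in C30 and 745 in C46 and likewise at 0 elsewhere. Pam, which amidates the ends of such peptides, was found in all 4 cells at 2 to 4 reads and in no other compared cell. A count of 0 in another cell allows up to 3 reads, or 5.96 to 48.6 CPM according to its depth, for independent reads. Chosen after their values were seen, Bdnf, a neurotrophin, was at 392 CPM in C14, 277 in C17, 696 in C30 and 0 in C46, and Fgf7, a growth factor that mesenchyme sends to epithelia, at 0 CPM in C14, 46.1 in C17, 73.3 in C30 and 73.4 in C46; both were at 0 in the other compared cells.

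The cytokine medium acts through the LIF, PDGF and EGF pathways. On a list of 23 genes of these pathways and of FGF signalling, 15 were measured, 1 was called higher and 2 lower. The shares over all genes were 4.38% higher and 7.14% lower. Pdgfra, the PDGF receptor of primitive endoderm, was at 0 CPM in C14, 15.4 in C17, 0 in C30 and 21 in C46 against 0 to 1301 CPM (median 104), a difference of -2.23 that was 0.74 against C09 and C45 alone. Pdgfrb, the receptor of mesenchymal cells, had 2 reads in C14 and 1 in C30, and the other cells held 3 reads in all, with C39 the only one at 5 CPM or more. Pdgfa, a ligand of the alpha receptor, was at 0 CPM in C14, 30.8 in C17, 293 in C30 and 41.9 in C46 and was called higher by 2.19. Il6st, the signalling subunit shared by LIF and related cytokines, was at 0 in the 4 cells and detected in 15 of the others.

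TGF-beta and YAP response genes were mostly above 0 in difference, 13 of 14 measured, against 2723 of 6569 over all genes. Of the 14, 4 were called higher, against 4.38% of all genes, and the list's median was 1.34 (thinned 1.42). Id2 and Id3, inhibitors of helix-loop-helix factors, were called higher by 3.25 and 3.07, and the feedback inhibitor Smad7 by 2.26. Ccn2, connective tissue growth factor, was not called: C14 and C30 held 561 and 1319 CPM, C17 held 0 and C46 held 41.9 CPM.

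Surface receptors for the matrix went both ways. Of 13 measured integrin and matrix receptor genes, 3 were called higher (Cd44, Itgb1 and Sdc1) and 2 lower (Cd9 and Cd151). Among all measured genes 4.38% were called higher and 7.14% lower. Itgb1, the beta-1 integrin shared by most collagen, laminin and fibronectin receptors, was at 1738 CPM in C14, 308 in C17, 1429 in C30 and 83.9 in C46, against 0 to 973 CPM (median 145) in the other cells. Tetraspanin gene Cd9 was at 392 CPM in C14, 0 in C17, 696 in C30 and 62.9 in C46, against 9.27 to 4962 CPM (median 1886), a difference of -3.39.

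The genes lower in the Col1a2 cells included most of the hypoblast programme. Of 16 core hypoblast genes, 10 were measured. Of these 7 were called lower and 0 higher, against 7.14% and 4.38% of all genes. All 10 differences were below 0, against 3846 of 6569 over all genes, with a list median of -2.18 (thinned -2.07). Gata4 was at 0 in the 4 cells and detected in 25 other cells (22 after thinning), where it was at 0 to 1512 CPM (median 259), a difference of -4.09. Gata6, the GATA factor that starts the lineage, was at 112 CPM in C14, 0 in C17, 0 in C30 and 21 in C46 against 0 to 3198 CPM (median 283), a difference of -3.31 with overlapping groups. Sox17 and Foxa2, endoderm transcription factors, were at 0 in the 4 cells, and their detection in the other cells, 22 and 19 cells, became 13 and 15 after thinning. Sox7 was found in C17 with 3 reads and was not called.

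Dab2, an adaptor of endocytosis in extraembryonic endoderm, was at 0 CPM in C14, 0 in C17, 0 in C30 and 21 in C46, against 0 to 2061 CPM (median 283) in the other cells, a difference of -4.37. The 2 reads in C46 were the only ones in the 4 cells, while 26 of 27 other cells held the gene. Cubn, the endocytic receptor cubilin, was at 0 in the 4 cells and detected in 19 others. Apoe, the lipoprotein gene of visceral endoderm, had 0 reads in all 4 cells and was detected in 25 other cells (25 thinned), at 0 to 3893 CPM (median 939). Its difference was -6.14. Of 5 measured visceral endoderm genes, 3 were called lower (Apoe, Cubn and Rhox5) and 0 higher, against 7.14% and 4.38% of all genes. The list's median was -2.64 (thinned -2.42).

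**Figure D3:**
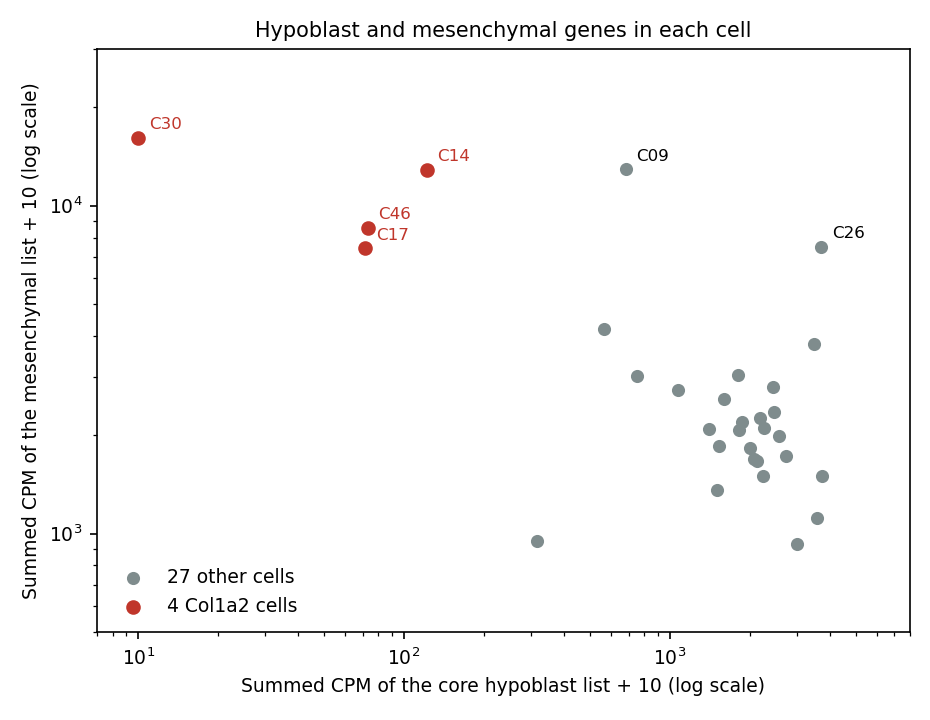
Summed CPM of 41 listed mesenchymal genes against summed CPM of 16 listed core hypoblast genes in each compared cell, both with 10 added and on log scales. Red points are the 4 Col1a2 cells and grey points the 27 other cells; the 4 cells lie at the upper left, with hypoblast sums of 0 to 112 CPM, and C09 and C26 are the other cells with the highest mesenchymal sums.

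Basement membrane genes were lower for laminin and type IV collagen and mixed for Sparc. Of 7 measured genes, 3 were called lower, against 7.14% of all genes. All 7 differences were below 0, against 3846 of 6569 over all genes, with a list median of -1.93. Lama1, the laminin alpha-1 chain whose promoter window is printed above, was at 0 CPM in C14, 30.8 in C17, 0 in C30 and 126 in C46, against 0 to 9897 CPM (median 2903) in the other cells, a difference of -5.90 (thinned -6.68). The gamma-1 chain gene Lamc1 was at 0 CPM in C14, 0 in C17, 73.3 in C30 and 241 in C46 and the type IV collagen gene Col4a1 at 0 CPM in C14, 308 in C17, 367 in C30 and 21 in C46, with differences of -5.25 and -3.88. Sparc, a collagen-binding matrix protein, was at 4596 CPM in C14, 338 in C17, 367 in C30 and 273 in C46 against 3.98 to 8915 CPM (median 3506): C14 lay above the median of the other cells and the remaining 3 far below it.

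Cells of the parietal yolk sac are known for cathepsin L and for the proteoglycan serglycin. Ctsl, the cathepsin L gene, was at 1037 CPM in C14, 369 in C17, 5974 in C30 and 357 in C46, against 13.9 to 47242 CPM (median 10395), and Srgn, the serglycin gene, at 56.1 CPM in C14, 0 in C17, 0 in C30 and 209.7 in C46, against 0 to 5112 CPM (median 1521). Both were called lower, by differences of -2.43 and -4.99, with overlapping groups. Thbd, or thrombomodulin, another gene of that tissue, was high in C30 at 2089 CPM and at 0 in the other 3 cells. Of 10 measured parietal endoderm genes, 3 were called lower and 0 higher, against 7.14% and 4.38% of all genes. The list's median moved from -1.08 to -0.59 after thinning.

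Epithelial genes were lower for keratins and claudin-6 and not for E-cadherin. Krt18 was at 0 in the 4 cells and detected in 24 other cells, and Krt8, its filament partner, was found in C46 alone with 3 reads. Of 16 measured epithelial genes 3 were called lower and 0 higher, against 7.14% and 4.38% of all genes. The list's median was -0.97 (thinned -0.88). Cdh1, the E-cadherin gene, was at 0 CPM in C14, 169 in C17, 0 in C30 and 231 in C46, against 0 to 2493 CPM (median 41.7), so C17 and C46 lay above the median of the other cells. Cdh2, or N-cadherin, was held by the other pair: C14 had 617 CPM, C30 had 879.6 CPM, and C17 and C46 had 0. Pard6b, a polarity protein of epithelia, was detected in all 27 other cells and in none of the 4, but in 19 other cells after thinning.

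Of 7 measured pluripotency genes, 0 were called higher and 1 lower. Over all genes these shares were 4.38% and 7.14%, so the counts of so few genes do not stand apart. Pou5f1 and Sox2 were at 0 in all 4, and Nanog had 1 read each in C17 and C46. Lin28a, an RNA-binding protein of embryonic cells, was at 0 CPM in C14, 30.8 in C17, 0 in C30 and 115 in C46 against 0 to 2979.9 CPM (median 170.2) and was the one gene of 7 measured that was called lower. Klf4 and Klf5 were found in 3 and in all 4 of the cells, with differences of -0.43 and -0.83 that were not called.

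Among the leading genes called lower were metabolic and redox genes that no list covered. Fabp3, a fatty acid-binding protein, was at 0 CPM in C14, 0 in C17, 0 in C30 and 94.4 in C46, below every other cell, against 201 to 6799 CPM (median 1751), with a difference of -6.58. Akr1c14, an aldo-keto reductase, had 1 read in C17 and was otherwise at 0 in the 4 cells, against a median of 1812 CPM in the others. Gpx2, a glutathione peroxidase, and Glul, glutamine synthetase, had 0 reads in the 4 cells and were each detected in 25 other cells. Mob1a, a kinase adaptor of the Hippo pathway, was found in C30 alone with 2 reads, against a median of 2392 CPM in the other cells.

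Of 15 measured glycolysis genes, 4 were called lower (Gapdh, Ldha, Ldhb and Pfkl) and 0 higher. Of the 15 differences, 14 were below 0, against 3846 of 6569 over all genes, with a list median of -1.29 (thinned -1.34). Gapdh, often used as a reference gene, was at 28 CPM in C14, 615 in C17, 73.3 in C30 and 598 in C46, against 398 to 4213 CPM (median 823). The pair C14 and C30 lay below all other cells, and C17 and C46 within their range. Against C09 and C45 alone, the list's median was 0.41. Of 20 measured genes of cholesterol and fatty acid synthesis, 1 was called higher and 2 lower (Insig1 and Srebf2), with a median of -1.05, or 0.08 against C09 and C45 alone. Of 39 ribosomal protein genes, 0 were called higher and 2 lower (Rpl14 and Rpl7), with a median of -0.23 (thinned -0.03). Over all genes 4.38% were called higher and 7.14% lower, so the cholesterol and ribosomal counts do not stand apart.

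**Figure D4:**
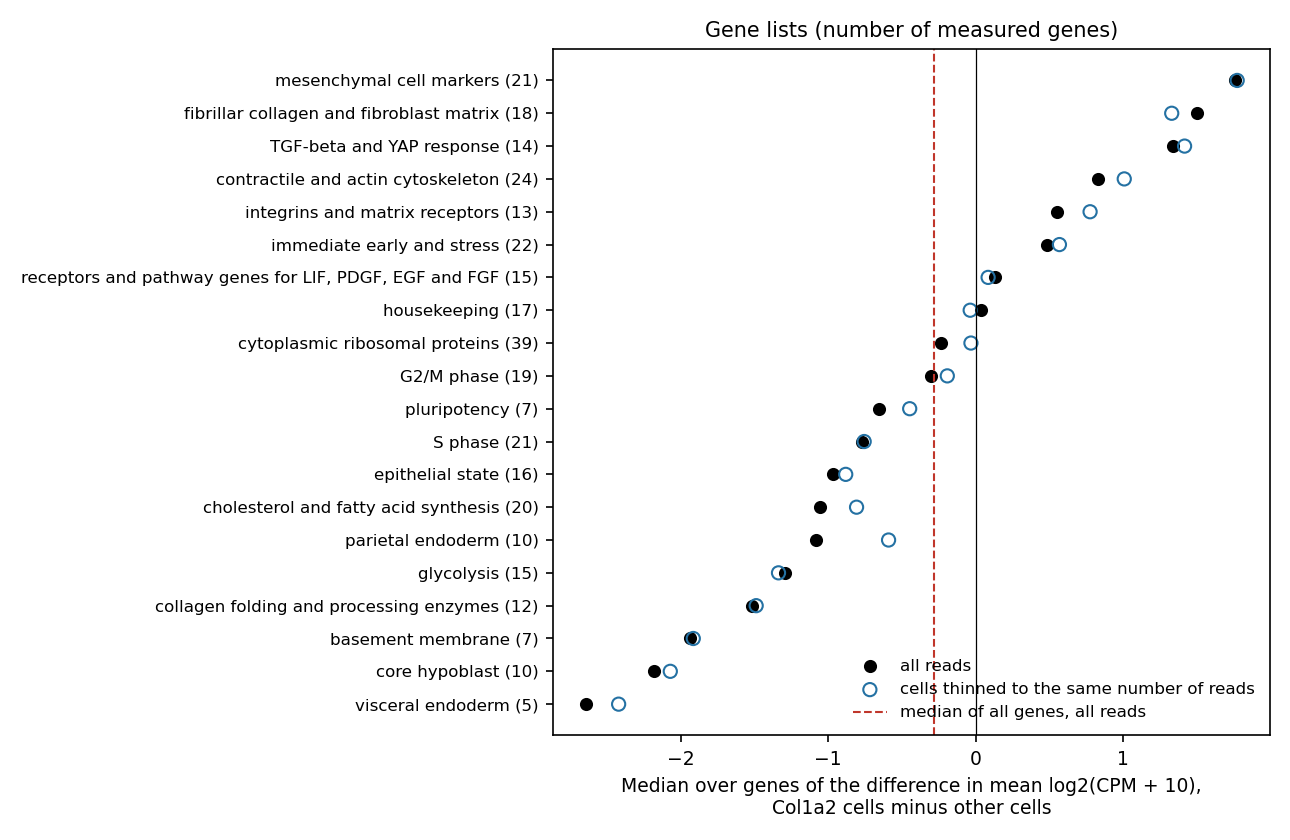
Median level difference, Col1a2 cells minus other cells, of each gene list with at least 5 measured genes; black points use all reads and blue rings the thinned cells, and the number of measured genes is in brackets. The dashed line is the median of all 6569 genes, -0.29; mesenchymal, fibrillar matrix and TGF-beta lists lie furthest right and visceral endoderm, core hypoblast and basement membrane lists furthest left.

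On the housekeeping list, 17 genes were measured, 3 were called higher and 1, Gapdh, lower, against 4.38% and 7.14% of all genes. The list's median was 0.04. Hprt1, a purine salvage enzyme, was among those called higher.

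Several called genes have relatives in the same gene family, and members of 1 family differed in size of difference or in sign. How alike their sequences are was not measured. Tubulin gene Tuba4a was at 1822 CPM in C14, 1753 in C17, 403 in C30 and 1154 in C46, with a difference of 4.57, while Tuba1b was at 0 CPM in C14, 61.5 in C17, 0 in C30 and 21 in C46 and lay below all other cells, with a difference of -4.04. Rpl3l, a relative of the ribosomal gene Rpl3 known from heart and skeletal muscle, was at 84.1 CPM in C14, 46.1 in C17, 110.0 in C30 and 220.2 in C46. It was found in 1 other cell, whereas Rpl3 itself differed by -0.85. The heat shock gene Hspa2 was in 3 of the 4 cells and 1 of the other cells, while its relative Hspa8 differed by 0.57. Actc1, cardiac actin, was at 3756 CPM in C14, 907 in C17, 403 in C30 and 1154 in C46, with a difference of 3.53, while Actb, the main cytoplasmic actin, differed by 0.79. No source used here gives the counting of reads that map to several genes. Whether reads of 1 family member were counted for another therefore cannot be told from the counts.

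Among genes with no overlap and a known role outside these lists, Ccnd1, cyclin D1 of the G1 phase, was at 925 CPM in C14, 554 in C17, 953 in C30 and 766 in C46, against 0 to 498 CPM (median 0) in the other cells. Hsp90ab1, a constitutive chaperone, was at 981 CPM in C14, 2137 in C17, 1576 in C30 and 2632 in C46 and lay below all other cells, which held 4646 to 30973 CPM (median 12255). Eci2, an enzyme of fatty acid oxidation, was at 420.4 CPM in C14, 2091 in C17, 1173 in C30 and 1636 in C46, against 0 to 354 CPM (median 21.5). Immediate early and stress genes as a list had 2 of 22 called higher (Dusp1 and Myc) and 1 lower (Atf3), with a median of 0.48. The shares over all genes were 4.38% higher and 7.14% lower.

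The 4 cells were not alike in the cell cycle. Of 21 S phase genes with a record, C14 held 1, C17 14, C30 3 and C46 19, against 3 to 20 (median 13) in the other cells. Of 19 G2/M genes, C14 held 1, C17 17, C30 0 and C46 12, against 2 to 19 (median 8). Kif23, a motor of cytokinesis, was at 0 CPM in C14, 646 in C17, 0 in C30 and 209.7 in C46, and Ccnb1, cyclin B1, at 0 CPM in C14, 923 in C17, 0 in C30 and 21 in C46. Reads for these genes were thus nearly absent from C14 and C30, the shallowest cells, and present in C17 and C46. Rrm2, a ribonucleotide reductase subunit for DNA synthesis, was called lower: it was at 84.1 CPM in C14, 215 in C17, 0 in C30 and 199 in C46, against 85.5 to 5649 CPM (median 1146). At level, 2 of 21 S phase genes (Mcm7 and Rrm2) and 1 of 19 G2/M genes (Mki67) were called lower and 0 higher. Over all genes 7.14% were called lower and 4.38% higher, so these counts do not stand apart. The S phase and G2/M medians were -0.77 and -0.30, and they were 0.0885 and 1.02 against C09 and C45 alone. The G2/M median was 0.09 without C14 and without C30, -1.10 without C17 and -0.02 without C46.

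Likeness between cells was measured as Spearman's rho of log2(CPM + 10) across the 6569 genes, which are not independent, as a description. In thinned cells, rho was 0.299 to 0.436 (median 0.322) within the 4 Col1a2 cells, 0.182 to 0.493 (median 0.367) within the other cells and 0.175 to 0.314 (median 0.236) between the groups. Each Col1a2 cell had another as its nearest cell, C14 with C30 (rho 0.381) and C17 with C46 (rho 0.436). For C14, C17 and C30 all 3 partners were nearer than any other cell. For C46 they were not, since C32 (rho 0.314) lay above C14 (0.313) and C30 (0.299).

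The same pairs appeared in single genes, a split chosen after the values were seen. C14 and C30 held the higher Col1a2, Col1a1, Vim and Fn1 values and shared Cdh2, and C17 and C46 shared Cdh1 and the cell cycle genes. Junb, an immediate early gene, was at 112 CPM in C14, 0 in C17, 623 in C30 and 0 in C46, and at 219.8 CPM in C09. Etv4, a target of ERK signalling, was at 0 CPM in C14, 92.3 in C17, 0 in C30 and 94.4 in C46, and at 0 in all other compared cells. C14 and C30 are also the shallowest of the 4 cells, and whether depth bears on the split was not tested.

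**Figure D5:**
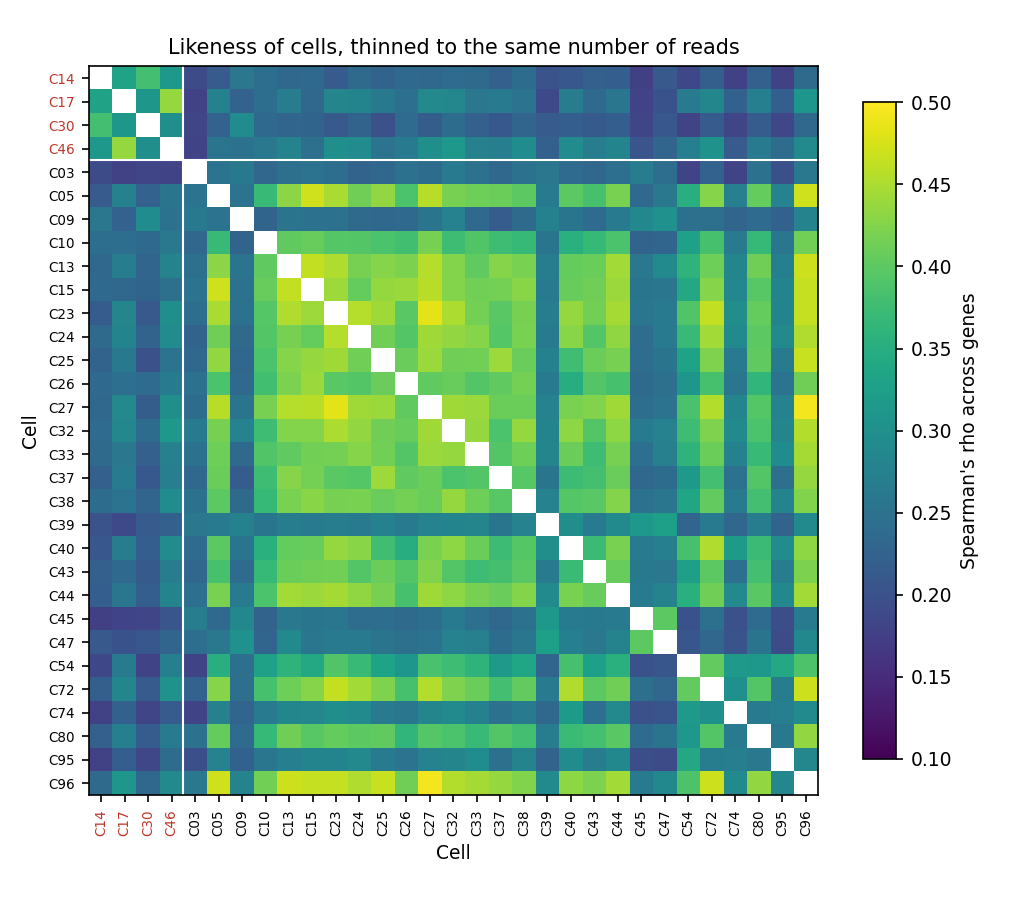
Spearman's rho between all 31 compared cells across 6569 genes after thinning to 27284 reads, as a colour scale from 0.1 to 0.5; white lines part the 4 Col1a2 cells (red names) from the 27 other cells, and the diagonal is blank. The block of Col1a2 cells lies between 0.299 and 0.436 and the band between the groups between 0.175 and 0.314; the 7 other cells that stood apart show as dark bands.

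Of the other cells, C09 came closest to the Col1a2 cells in single genes. It was the highest other cell for Lgals1, Vim, S100a6, Itm2b and Tuba4a, and the only one with Col1a1. It had 0 reads of Col1a2, its core hypoblast genes summed to 675 CPM, and its median rho with the Col1a2 cells was 0.254 against 0.249 with the other cells. Across all measured genes it was not the closest. Median rho with the Col1a2 cells was higher in C96 (0.265), C32 (0.263), C27 (0.260) and C24 (0.260). Without C09, none of the 6 counts of called genes moved by more than 1.5 times.

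No doublet caller was run, and whether a chamber held more than 1 cell was not tested. The 4 cells held 0 to 3 of the core hypoblast genes at 5 CPM or more, against 2 to 12 in the other cells. Fibroblast matrix genes numbered 7 to 14 in the 4 cells, Col1a2 included, and 0 to 4 in the others. Counts were even in 66.1% to 69.7% of the nonzero values of the 4 cells and in 59.8% to 72.6% of those of the other cells. Reads are thus not independent molecules in either group, and the limits given for counts of 0 are too low.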

How the data were processed

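RNA-seq of rat converted hypoblast stem cells was deposited by the authors as raw read counts per RefSeq transcript record, 1 column for each of 34 single cells and 1 bulk library. TopHat2 and the rn5 genome are named in the submitters' processing notes; the counting tool, its annotation and its treatment of multi-mapping reads are not stated in any source used here. The authors' counts were not normalised, and CPM were computed here from each cell's total. Of 17201 records, 16215 took a symbol from the RefSeq table of GRCr8, and the other 986 held 4.11% of reads. The labels give no culture, batch or replicate, so the cells are 1 sample and no test was run.

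Detection means 5 CPM or more, and levels were compared as means over cells of log2(CPM + 10). Calls by detection used genes detected in at least 3 compared cells. Calls by level used genes whose mean CPM, averaged over both groups, was at least 10, with a difference of at least 2. Reads were also thinned at random without replacement to 27284 per cell, the smallest total of the 4 cells. No 2 cells held identical counts, no doublet caller was run, and intervals or limits for a count of 0 (3 reads) cover counting error only. The scripts were tested on simulated data.

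The text names preset key genes, the 15 leading genes of each call by difference and the most abundant members of preset lists. Called or defining members of the 23 gene lists, genes with no overlap, relatives in gene families and a few genes chosen after their values were seen are named as well. The Col1a2 cells, the key genes and the lists were chosen with earlier results of these data known. Alternatives were another pseudocount, another detection level, no filter on low genes, medians, edgeR 4.0.16 TMM factors, thinning, other choices of the other cells, totals without Rn45s, and leaving out each of the 4 cells. The comparison without C09 was added after seeing the data. Some genes are not reported here. Python 3.11.15, pandas 2.3.3, scipy 1.17.1 and R 4.3.3 were used.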

Additional observations from a re-analysis of the deposited data

Results flagged for a closer look

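In 120 sets of 4 values, 1 of the Col1a2 cells stood apart from the other 3 in 19 sets. Its gap to the nearest cell was then above Dixon's critical share of the whole range. Dixon's share gives about 1 in 20 sets only for independent normal values. Many values here are 0, and many genes were named for their levels in these same cells, so 1 in 20 is no baseline for the 19 sets. In 13 of the 19 sets the other 3 cells were at 0, so that a few reads in 1 cell are enough.

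C14 stood apart with large values. Its Acta2 level, smooth muscle actin, was 12388 CPM against 219.9 to 378 CPM in the other 3, and its Tagln level 392 CPM against 0. Sparc was at 4596 CPM in C14 against 273 to 367 CPM, which carried the summed basement membrane genes to 4708 CPM against 707 to 806 CPM. S100a6 was lowest in C14, at 673 CPM against 1522 to 1759 CPM, and Col3a1 was at 56.1 CPM there and 0 in the others. The summed trophoblast list was 869 CPM in C14, all from Prl2c1, a gene of the prolactin family, and 0 in the others.

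C30 alone held Thbd, thrombomodulin, at 2089 CPM, and Mob1a, at 73.3 CPM. Its Spp1 level, the secreted phosphoprotein osteopontin, was 3372 CPM against 56.1 to 108 CPM in the other 3 cells.

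C46, the deepest of the 4 cells, alone held the fatty acid-binding protein gene Fabp3 at 94.4 CPM, Fcrla at 73.4 CPM, the keratin Krt8 at 31.5 CPM, and Dab2, Mki67 and Ppp1r15b at 21 CPM each. Its level of Anxa2, an annexin, was 1542 CPM against 806 to 897 CPM. C17 alone held Sox7 at 46.1 CPM and Akr1c14 at 15.4 CPM.

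The bulk library, outside the comparison, held 40 reads of Col1a2, 76 of Thbs1 and 4 of the matrix glycoprotein gene Tnc, genes at 0 in all 27 other cells.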

How the results depend on the processing

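Detection depends on depth, cells of 1 sample are not replicates, and the 4 cells were selected in the same data. Genes detected in fewer Col1a2 cells, 71 in the comparison, numbered 25 at a detection level of 50 CPM, 36 after thinning, 39 against all 30 other cells, 246 against other cells with at least 4000 genes and 0 against C09 and C45, the other cells no deeper than C46. Against C09 and C45, 662 genes were detected in more Col1a2 cells and 806 were called higher, while 336 lay above and 203 below both. Called higher and lower were 603 and 1217 genes after adding 1 CPM, 72 and 92 after adding 50, and 511 and 730 with medians over cells; against cells with at least 4000 genes 851 were lower, and 53 lay above and 106 below all of them. No gene lay below all 30 other cells (0). Leaving out each of the 4 cells in turn gave 40 to 81 genes detected in more cells, 80 to 138 in fewer, 227 to 337 called higher, 443 to 608 lower, 34 to 54 above and 4 to 10 below. The median of genes per other cell was 3159 after thinning. Among medians of at least 0.5 in size and called genes, the sign turned against C09 and C45 for collagen folding (0.28), S phase (0.0885), glycolysis (0.41), cholesterol synthesis (0.08) and Pdgfra (0.74), and without C14 for the neural list (-0.56, and up to 1.60 without another of the 4). The causes were not tested. Of 360 medians of lists and of all genes under alternatives, 21 turned sign, in 10 of 24 cases: beside the lists named, these were the G2/M, ribosomal, housekeeping and receptor lists and all genes (0.58 against C09 and C45). Of 495 key gene values, 6 turned sign, those of Pdgfra, Cdh1, Klf4, Sox7 and Tagln. The sign was kept in all 15 alternatives for the matrix, mesenchymal, contractile, TGF-beta, core hypoblast, basement membrane and visceral lists. Members with no read in 1 group had little room to turn sign. No paired analysis was possible because the cells carry no replicate numbers.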

Other observations

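The bulk library, labelled as a population control, was set beside the genes called in the Col1a2 cells. Of 287 genes called higher, without Col1a2, 149 (51.9%) had a bulk CPM above the mean of the other cells. So had 37.1% of all 6569 measured genes and 32.4% of the genes called lower. The calls themselves select on that mean: its median was 34.0 CPM for genes called higher, 226 for genes called lower and 52.7 over all. The differences in share are therefore partly built in. Of the 148 genes detected in more Col1a2 cells the share was 36.5%, and of the 71 detected in fewer it was 39.4%. In the bulk library, fewer cells of a type and less RNA per cell cannot be told apart.

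Bulk reads numbered 40 for Col1a2, 39 for Col1a1 and 94 for Fn1. The bulk library held 47121 reads, fewer than any of the 27 other cells, so 1 read in it is worth 21.2 CPM.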
